A study of Mus musculus with 48 samples.

Results

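The comparison described here is the step from a high fat diet to a diet rich in fat, cholesterol and fructose in the livers of female mice that the labels call hepatocyte-specific PPARγ knockouts. Its members were chosen by sample title: the 4 F-N-KO libraries against the 4 F-HF-KO libraries, 8 of the 48 RNA-seq libraries of the series. All 8 mice were adult females with a floxed Pparg gene, and all received AAV8-TBG-Cre after 16 weeks on diet. That virus carries Cre recombinase under the TBG promoter, which is active in hepatocytes. The F-HF-KO mice ate the HF diet for 34 weeks, and their livers are labelled as steatotic. The F-N-KO mice ate the HF diet for 18 weeks and then the HFCF diet for 16 weeks, and their livers are labelled with non-alcoholic steatohepatitis. Both groups are called here by their diet, HF and HFCF, with the replicate numbers of the titles. The remaining libraries came from females on a low fat (LF) diet, from males, and from controls given the same virus without Cre. Each library is 1 whole liver; the strain, the age and the hour of collection are not given in the sources used here, and nothing in the labels says whether the mice of a group shared litters or cages.

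PPARγ is a nuclear receptor that turns on genes of lipid uptake and storage; it is most abundant in fat tissue and is induced in fatty liver. In steatohepatitis, lipid-loaded hepatocytes are joined by macrophages that take up lipid, by stellate cells that become matrix-producing myofibroblasts, and by duct-like epithelium around injured tissue. Cholesterol taken up from a diet is known to suppress the SREBP2 program of cholesterol synthesis, whereas fructose feeds lipogenesis. Because RNA came from whole liver, fewer cells of a type and less RNA per cell cannot be told apart in any value below.

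Pparg itself, gene ENSMUSG00000000440 on the plus strand of chromosome 6 (115360951 to 115490399, GRCm38), comes before the other genes because the virus targets it. Levels are given in CPM, read counts scaled by TMM to a common library size. In HF replicates 1 to 4 Pparg stood at 25.6, 29.45, 38.95 and 20.3 CPM, and in HFCF replicates 1 to 4 at 39.1, 59.4, 44.8 and 39.95 CPM. All HFCF livers were above all HF livers. The log2 difference was 0.68 (SE 0.21) and missed the threshold of 0.05 in edgeR (adjusted p 0.0528). Exact permutation of the 8 libraries, 2-sided, gave p = 0.0286, the smallest that 4 against 4 allow. It passed without HF replicate 3 (log2 0.88, adjusted p 0.0112) and without HFCF replicate 1 (log2 0.76, adjusted p 0.0258). Female controls on the same diets averaged 18.7 ± 4.14 CPM (SD, n = 4; HF) and 23.7 ± 1.47 CPM (n = 4; HFCF), and the means of the labelled knockouts, 28.6 ± 7.85 and 45.8 ± 9.39 CPM, were not below them. The counts cover the whole gene and the labels do not name the floxed exons, so they do not show whether the floxed part was lost; the term labelled knockout is used for that reason.

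Depth was 15338182 to 21230433 reads on genes per library. The hepatocyte markers were the most abundant of the marker lists in all 8 livers, with a summed level of 83603 to 160675 CPM. In each group 1 library stood apart. HFCF replicate 1 lay at −1.2 on the first principal component (51.7% of the variance), between the other HFCF livers (40.4 to 54.2) and the HF livers (−60.9 to −11.8), and alone at −58.7 on the second (16.4%). Its hepatocyte markers summed to 150352 CPM, within the HF range of 138175 to 160675, whereas the other 3 HFCF livers had 83603 to 106187. HF replicate 3 was rich in leukocyte transcripts: its recruited myeloid genes summed to 522.5 CPM against 113.5 to 162.7 CPM in the other HF livers, and its T, B and NK cell genes to 267.5 against 63.8 to 94.7 CPM. Results that rest on either library are given with and without it.

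Of 14650 genes tested, 2118 (14.5%) differed between the diets at an edgeR adjusted p under 0.05; 1237 (8.44%) were higher on HFCF and 881 (6.01%) lower. An unadjusted p under 0.05 was reached by 4419 genes (30.2%). CPM did not overlap between the groups for 2838 genes (19.4%), with all HFCF livers higher for 1493 (10.2%) and lower for 1345 (9.18%). These numbers depended on single libraries. Without HFCF replicate 1, 4402 of 15114 genes (29.1%) were called, 2290 higher (15.2%) and 2112 lower (14%), and these held 2105 of the 2118. Leaving out any of 6 other libraries lowered the number, to 1078 without HF replicate 1, 1343 without HF replicate 2, 1014 without HF replicate 4, 1006 without HFCF replicate 2, 1124 without HFCF replicate 3 and 866 without HFCF replicate 4. Without HF replicate 3 it was 2584. In the fit without HFCF replicate 4, 3.87% of all genes were called higher and 1.95% lower. List counts in the leave-one-out fits move with such shares. A gene described below as having risen or fallen passed the threshold with all 8 libraries, and, unless its sentence says otherwise, in all 8 leave-one-out fits, each of which omits 1 library.

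**Figure D1:**
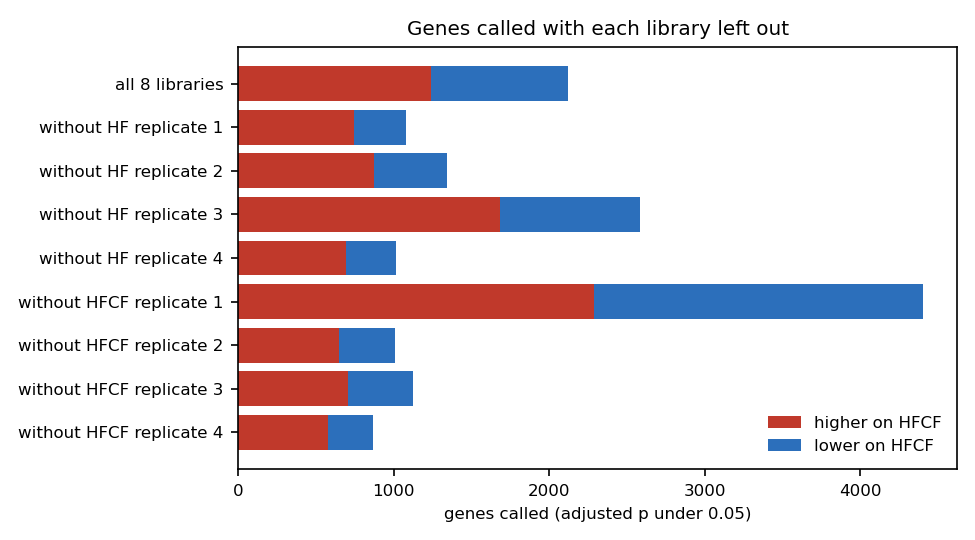
Number of genes called at an edgeR adjusted p under 0.05 (horizontal axis) with all 8 libraries and with each library left out in turn; the bar is divided into genes higher (red) and lower (blue) on HFCF. The bar without HFCF replicate 1 reaches 4402 genes, that without HFCF replicate 4 ends at 866.

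Extracellular matrix genes had the highest share of rises among the lists with 5 or more genes tested. Of the 30 matrix and crosslinking genes tested, 27 rose and 1 fell (90.0% and 3.33%, beside 8.44% and 6.01% of all genes tested), with a median log2 change of 1.88 beside −0.01 over all genes. The gene that fell, Fn1 (plasma and cellular fibronectin), was named after its values were seen; it changed by −0.56 (adjusted p 0.0465), was called in 3 of the 8 leave-one-out fits (adjusted p 0.0979 to 0.14 in those without HF replicate 1, 2 or 4 or HFCF replicate 3 or 4), and overlapped between groups. Left-out libraries moved the number of risers between 26 and 29. Col1a1, the α1 chain of type I collagen (chromosome 11, 94936224 to 94953042, plus strand), measured 22.9, 36.2, 21.6 and 4.47 CPM in HF replicates 1 to 4 and 78.0, 193.6, 158.6 and 223.7 CPM in HFCF replicates 1 to 4. HFCF replicate 1 was the lowest of its group but stood above every HF liver; the log2 change was 2.95 (SE 0.52, adjusted p 0.00686). Elastin (Eln) rose by 2.38 (SE 0.26, adjusted p 0.00159) and the lysyl oxidase-like crosslinking enzyme Loxl2 by 2.0 (SE 0.22, adjusted p 0.00159).

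The largest rises of the matrix list were those of a pair of matrix-degrading enzymes, the macrophage elastase Mmp12 and the collagenase Mmp13. Mmp12 (chromosome 9, 7344381 to 7369499, plus strand) had 0.913, 2.18, 1.73 and 0.489 CPM in the HF livers and 18.2, 53.6, 32.9 and 42.4 CPM in the HFCF livers, a log2 change of 4.78 (SE 0.44, adjusted p 0.00108); it overlaps Mmp1b, and reads of the 2 genes cannot be told apart without strand. Mmp13 (chromosome 9, 7272514 to 7283331, plus strand) had 0.107, 0.199, 0.0481 and 0.140 CPM on HF and 2.32, 4.77, 3.51 and 3.59 CPM on HFCF, a log2 change of 4.84 (SE 0.42, adjusted p 0.00108). Its HF levels lie near the floor, so the size of this change is imprecise. Neither gene overlapped between diets, which was a condition for naming genes by the size of their rise. Timp1, the secreted inhibitor of such enzymes, rose by 3.90 (SE 0.71, adjusted p 0.00782); it overlaps Syn1, with the same limit. The stretches before the RefSeq starts of both protease genes are shown because each holds the AP-1 letters TGANTCA (searched on both strands, match in capitals), 44 bases before the start in Mmp12 and 35 bases before it in Mmp13. Sequences are from RefSeq on GRCm38.p6, plus strand, chr9:7347124-7347373 and chr9:7272264-7272513.
Mmp12: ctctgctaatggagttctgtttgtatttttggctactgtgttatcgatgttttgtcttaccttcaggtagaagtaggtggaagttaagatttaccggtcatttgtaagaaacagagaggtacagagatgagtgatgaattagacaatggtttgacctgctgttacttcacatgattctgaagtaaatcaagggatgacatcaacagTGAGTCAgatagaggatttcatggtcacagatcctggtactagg
Mmp13: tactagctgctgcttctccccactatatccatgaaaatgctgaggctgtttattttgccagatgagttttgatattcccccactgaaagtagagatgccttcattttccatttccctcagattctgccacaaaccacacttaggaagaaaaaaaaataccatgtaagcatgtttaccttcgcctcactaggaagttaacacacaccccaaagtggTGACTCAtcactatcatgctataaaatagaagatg
The letters were found before 3 of the 18 matrix genes with a RefSeq promoter entry (16.7%) and before 7.82% of 27025 genes. Col6a1 was the third. They also stood before 2 of 17 cholesterol synthesis genes (11.8%) and 0 of 15 clock genes with an entry. A match is a description of these 250 bases, not of a bound site.

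Stellate cell and myofibroblast genes rose in 13 of 17 tested (76.5%, beside 8.44% of all genes) and fell in 0, with a median of 0.90. Without HFCF replicate 4, 33.3% of the list rose, beside 3.87% of all genes. Pdgfrb, the receptor for platelet-derived growth factor on stellate cells, measured 15.6, 23.0, 13.1 and 9.16 CPM on HF and 31.6, 45.25, 44.8 and 52.0 CPM on HFCF (log2 1.52, SE 0.25, adjusted p 0.00548). The smooth muscle actin gene Acta2 rose by 1.55 (SE 0.27, adjusted p 0.0069), the stellate globin Cygb by 1.24 (SE 0.21, adjusted p 0.00628), and Lrat, which makes the retinyl esters that quiescent stellate cells store, by 0.90 (SE 0.16, adjusted p 0.00773). Genes of quiescent and of activated stellate cells were both higher. This count moved with the libraries: it was 8 without HF replicate 1, 7 without HF replicate 4, and 6 without HFCF replicate 2, 3 or 4, against 14 without HFCF replicate 1.

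**Figure D2:**
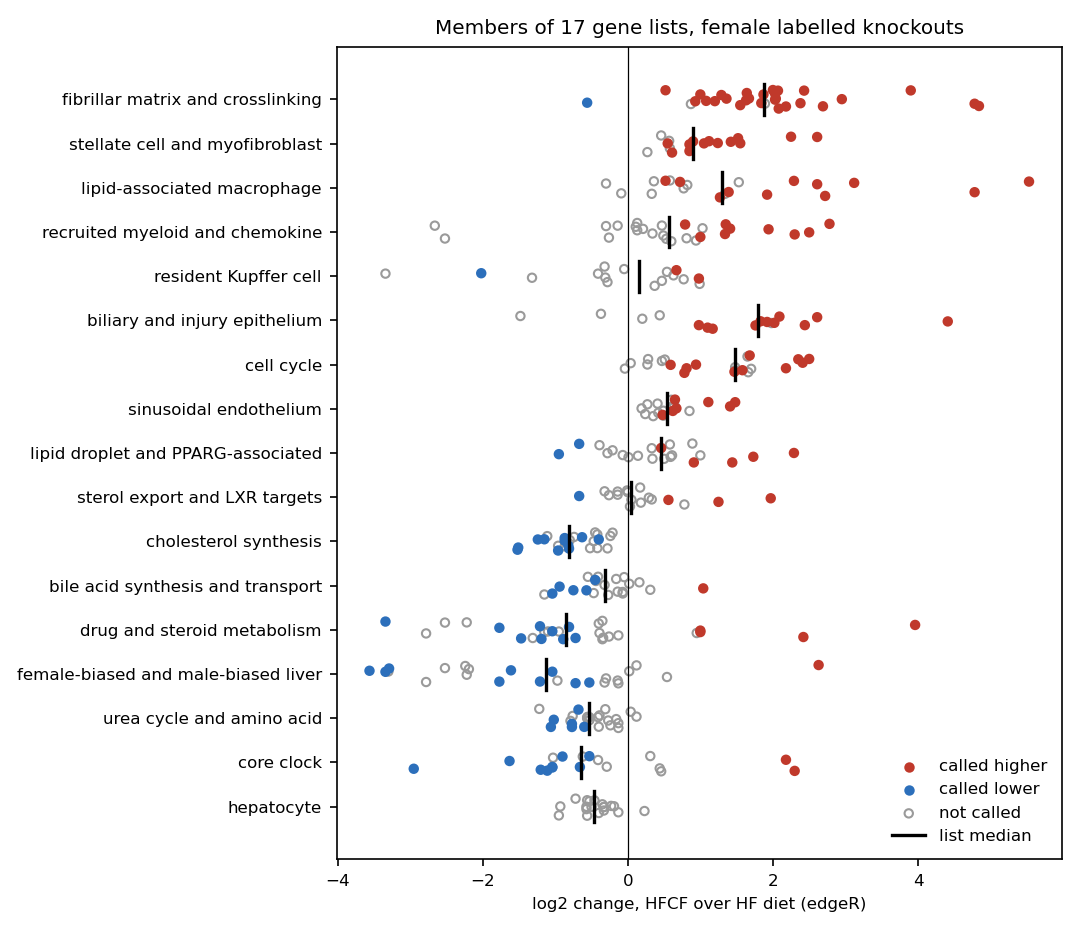
Log2 change, HFCF over HF (horizontal axis), of each tested member of 17 gene lists; filled points passed the edgeR threshold (red higher, blue lower), open points did not, and the bar is the list median. Matrix genes lie to the right with a median of 1.88, and cholesterol synthesis genes to the left with a median of −0.81.

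Genes of lipid-associated macrophages, the cells that take up lipid and debris in steatohepatitis, rose in 11 of 20 tested and fell in 0 (median 1.31). The share that rose was 55.0%, beside 8.44% of all genes. Left-out libraries kept the number between 9 and 13. Gpnmb (chromosome 6, 49036546 to 49070929, plus strand), a glycoprotein of lipid-laden macrophages, had 0.644, 0.8605, 2.69 and 0.3495 CPM in HF replicates 1 to 4 and 20.7, 81.0, 48.4 and 74.4 CPM in HFCF replicates 1 to 4. Its log2 change of 5.53 (SE 0.59, adjusted p 0.00143) corresponds to 46.3-fold and was the second largest rise of the named genes. Trem2, the lipid-sensing receptor of these cells, measured 1.18, 2.78, 3.125 and 1.68 CPM on HF and 11.8, 23.0, 18.6 and 23.2 CPM on HFCF (log2 3.12, SE 0.33, adjusted p 0.00127). The tetraspanin Cd63 rose by 2.72 (SE 0.27, adjusted p 0.00126). Osteopontin (Spp1), which is also made by duct-like epithelium and was listed there and with the stellate genes, stood at 63.5, 71.3, 52.2 and 69.5 CPM on HF and 216.0, 424.1, 501.8 and 416.6 CPM on HFCF (log2 2.61, SE 0.24, adjusted p 0.00108). In these 4 genes HFCF replicate 1 was the lowest of its group and still above every HF liver.

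Recruited myeloid and chemokine genes rose in 9 of 26 tested and fell in 0 (median 0.56), but this count depended on single libraries: 19 without HF replicate 3, 11 without HFCF replicate 1, 5 without HF replicate 4, 2 without HF replicate 1, HF replicate 2, HFCF replicate 2 or HFCF replicate 3, and 1 without HFCF replicate 4. With all libraries 34.6% of this list rose, beside 8.44% of all genes. Without HFCF replicate 4, 3.85% of it rose, beside 3.87% of all genes. The chemokine Ccl6 rose by 1.41 (SE 0.22, adjusted p 0.0046). Ccr2, the receptor that draws monocytes into tissue, had 4.403, 3.97, 7.645 and 1.33 CPM on HF and 7.40, 19.1, 20.0 and 21.0 CPM on HFCF. HFCF replicate 1 lay just below HF replicate 3, and the call (log2 1.94, adjusted p 0.0206) was kept in 3 of the 8 fits, those without HF replicate 3, HF replicate 4 or HFCF replicate 1 (adjusted p 0.0548 to 0.0624 in the other 5). The cytokine genes Tnf and Il1b, named after their values were seen, changed by 0.11 (adjusted p 0.932) and −0.26 (adjusted p 0.816), with their highest levels, 2.885 and 13.6 CPM, in HF replicate 3. Of 18 T, B and NK cell genes, 0 were called by edgeR (median 0.07; 0 had an unadjusted p under 0.05, and 0 were called by the DESeq2 Wald test).

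Of the resident Kupffer cell genes 2 of 16 rose (12.5%) and 1 fell (6.25%), close to the 8.44% and 6.01% of all genes, with a median of 0.16. Folr2, a folate receptor of resident macrophages, rose by 0.98 (SE 0.19, adjusted p 0.0102). Cd163, the haemoglobin-haptoglobin scavenger receptor, measured 14.45, 23.6, 8.27 and 22.6 CPM on HF, against 11.0 CPM in HFCF replicate 1 and 2.39, 1.88 and 2.15 CPM in HFCF replicates 2 to 4. The groups overlapped through HFCF replicate 1; the log2 change was −2.02 (adjusted p 0.0377) with that library and −2.98 (adjusted p 0.000736) without it, and the call was lost (adjusted p 0.0739 to 0.111) without any of HF replicates 1, 2 and 4 or HFCF replicates 2 to 4. Clec4f, a lectin specific to Kupffer cells and named as a defining marker, was at 133.4 to 150.9 CPM on HF and 141.7 to 241.3 CPM on HFCF, with an adjusted p of 0.121. The list had 7 higher and 1 lower without HF replicate 3, 2 higher and 3 lower without HFCF replicate 1, 1 higher and 1 lower without HF replicate 2, and 1 higher and 0 lower in the other 5 fits. Sinusoidal endothelial genes rose in 7 of 18 (38.9%, beside 8.44% of all genes), with a median of 0.55. The number was 12 without HFCF replicate 1, 5 without HF replicate 3 and 3 without HF replicate 2. It was 2 without HF replicate 1, and 1 without HF replicate 4 or HFCF replicate 2, 3 or 4. Without HFCF replicate 4, 5.56% of the list rose, beside 3.87% of all genes. Of the lysosomal list 25.0% rose and 4.17% fell, beside 8.44% and 6.01% of all genes. Lysosomal genes fell in 1 of 24 (3 without HFCF replicate 1, 0 without HFCF replicate 4) and rose in 6, among these the proteases Ctsd (log2 0.72, SE 0.12, adjusted p 0.00593), Ctsk (1.90, SE 0.36, adjusted p 0.00876) and Ctss (1.39, SE 0.28, adjusted p 0.0117); 9 rose without HFCF replicate 1, and 3 without HF replicate 1, 2 or 4 or HFCF replicate 2, 3 or 4.

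**Figure D3:**
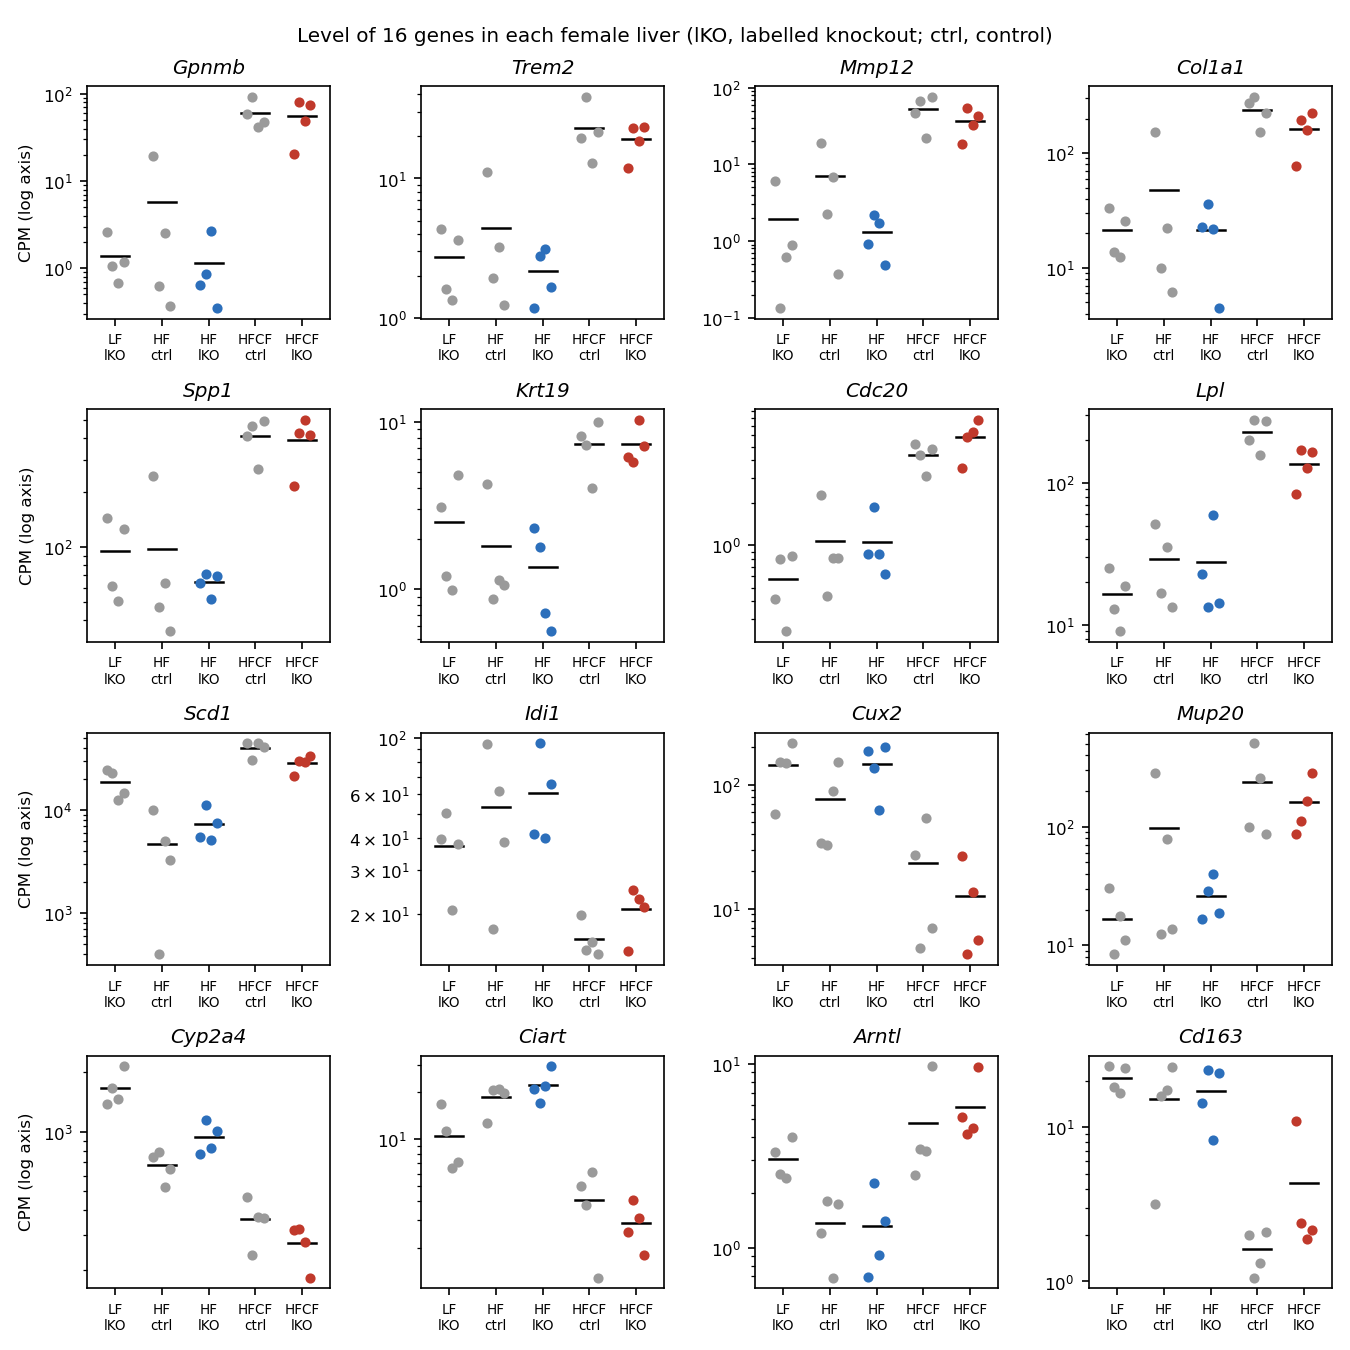
CPM (log axis, scaled per panel) of 16 genes in each liver of 5 female groups; points are livers, bars are group means, blue is the HF and red the HFCF group of labelled knockouts, and grey are LF labelled knockouts and controls. In Gpnmb the HFCF livers lie between 20.7 and 81.0 CPM and the HF livers between 0.3495 and 2.69 CPM; in Cd163 HFCF replicate 1 lies at 11.0 CPM, within the HF group.

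Epithelial and proliferation genes were also higher on HFCF. Among biliary and injury epithelium genes 11 of 16 rose (68.8%, beside 8.44% of all genes) and 0 fell, with a median of 1.79. With 1 library left out, 9 to 13 rose. Ly6d, a small membrane-anchored protein of the Ly6 family, rose from 2.47, 3.57, 2.26 and 1.05 CPM on HF to 26.5, 42.5, 38.3 and 91.95 CPM on HFCF (log2 4.41, SE 0.45, adjusted p 0.00126). The stem and duct cell marker Prom1 rose by 1.83 (SE 0.17, adjusted p 0.00108) and keratin 8 (Krt8), shared by hepatocytes and duct cells, by 1.17 (SE 0.14, adjusted p 0.00186). The duct keratin Krt19, a defining marker, was at 0.559 to 2.31 CPM on HF and 5.72 to 10.2 CPM on HFCF (log2 2.44, SE 0.40, adjusted p 0.00559). Among cell cycle genes 11 of 22 rose, beside 8.44% of all genes, and 0 fell (median 1.47). The share of this list that rose was 18.2% without HFCF replicate 4, beside 3.87% of all genes in that fit. Cdc20, an activator of mitotic exit, measured 0.859, 1.85, 0.8655 and 0.629 CPM on HF and 3.55, 5.82, 6.38 and 7.74 CPM on HFCF (log2 2.50, SE 0.36, adjusted p 0.00356). The replication helicase subunits Mcm5 and Mcm6 rose by 1.58 (adjusted p 0.00553) and 1.47 (adjusted p 0.00823), and the cyclin-dependent kinase inhibitor Cdkn1a by 2.35 (adjusted p 0.0139). The cell cycle count was 14 without HF replicate 3 or HFCF replicate 1, 7 without HF replicate 2, 6 without HF replicate 1 or HFCF replicate 2, 5 without HF replicate 4 or HFCF replicate 3, and 4 without HFCF replicate 4.

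Several of the largest rises lay outside these groups. Sprr1a, a small proline-rich protein of cornified epithelia, had 0.215, 0.199, 0.192 and 0 CPM on HF and 3.48, 12.2, 4.01 and 13.0 CPM on HFCF; its log2 change of 5.64 (SE 0.66, adjusted p 0.00186) was the largest of the named genes. The ephrin receptor kinase Ephb2 rose by 5.02 (SE 0.70), from 0.463 to 0.909 CPM on HF to 4.21, 17.5, 14.5 and 45.1 CPM on HFCF. The ubiquitin-like modifier Ubd rose by 4.61 (SE 0.64), the glutathione transferase Gsta1 by 3.96 (SE 0.58), the secreted EGF-domain protein Scube1 by 4.09 (SE 0.58) and the non-classical MHC class I gene H2-M2 by 3.64 (SE 0.59), each with an adjusted p between 0.00308 and 0.00514. Gsta1 has close paralogs, so its reads are uncertain. In each of these genes HFCF and HF livers did not overlap, which was a condition for naming genes by the size of their rise. Of all genes tested, 19.4% did not overlap.

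Among hepatic lipid genes, most list members were not called. The lipogenic desaturase Scd1 (chromosome 19, 44394451 to 44407709, minus strand), which makes monounsaturated fatty acids, had the largest rise in CPM of any called gene: 5431, 11188, 5083.5 and 7517 CPM in HF replicates 1 to 4 and 21156, 29560, 28972 and 33511 CPM in HFCF replicates 1 to 4 (log2 1.97, SE 0.27, adjusted p 0.00308). All HFCF livers had more Scd1 than any HF liver. Labelled knockouts on the LF diet stood between, at 18528 ± 5851 CPM (SD, n = 4). Of the fructose and lipogenesis list, which does not hold Scd1, 1 of 21 rose and 2 fell (4.76% and 9.52%, near the 8.44% and 6.01% of all genes; median 0.31). The risers numbered 4 without HF replicate 2, 3 without HFCF replicate 1, 2 without HF replicate 3 and 0 without HF replicate 1, HF replicate 4 or HFCF replicate 4; 3 fell without HFCF replicate 1 and 1 in each of the other 7 fits. The fatty acid elongase Elovl6 rose by 0.87 (adjusted p 0.0264; lost without HF replicate 1, HF replicate 4 or HFCF replicate 4, adjusted p 0.0647 to 0.0789), and the hepatic glucose and fructose transporter Slc2a2 fell by 0.57 (SE 0.11, adjusted p 0.00914). Fasn, fatty acid synthase, changed by 0.31 (adjusted p 0.517) and Khk, the kinase that traps fructose, by 0.10 (adjusted p 0.785); both were named after their values were seen.

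Among lipid droplet and PPARG-associated genes 5 of 21 rose and 2 fell (median 0.46). These shares were 23.8% and 9.52%, beside 8.44% and 6.01% of all genes. Without HFCF replicate 4 they were 4.76% each, beside 3.87% and 1.95%. Lipoprotein lipase (Lpl), a PPARγ target in fat tissue that is also made by lipid-laden macrophages, measured 22.9, 13.4, 59.6 and 14.3 CPM on HF and 83.4, 170.8, 126.8 and 165.1 CPM on HFCF (log2 2.29, SE 0.47, adjusted p 0.0119). The acyltransferase Mogat1 rose by 1.44 (SE 0.30, adjusted p 0.0139; 0.0501 without HFCF replicate 4). Cidec, which fuses lipid droplets, had 2.74, 6.22, 2.74 and 3.08 CPM on HF and 4.135, 16.2, 12.3 and 15.5 CPM on HFCF. The groups overlapped through HFCF replicate 1 and HF replicate 2, and the log2 change of 1.73 (adjusted p 0.0224) lost its call without HF replicate 1, HF replicate 4 or HFCF replicates 2 to 4 (adjusted p 0.0562 to 0.0700). The risers of this list numbered 9 without HFCF replicate 1, 8 without HF replicate 2, 6 without HF replicate 3, 3 without HF replicate 1 or 4, 2 without HFCF replicate 2 or 3, and 1 without HFCF replicate 4. The 2 falls became 3 without HF replicate 3 or HFCF replicate 1, 1 without HFCF replicate 4 and 0 in the other 5 fits. PPARA targets and fatty acid oxidation genes, the oxidative counterpart, rose in 2 of 26 and fell in 2 (7.69% each, near the shares over all genes; median −0.14). Without HFCF replicate 1 these numbers were 5 and 6 (19.2% and 23.1%, beside 15.2% and 14% of all genes in that fit), without HF replicate 3 they were 1 and 4, without HF replicate 1 or 2 they were 1 and 0, and without HF replicate 4 or HFCF replicates 2 to 4 both were 0.

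Cholesterol synthesis genes were lower on HFCF. Of 25 tested, 11 fell and 0 rose (44.0%, beside 6.01% of all genes), with a median of −0.81. The sterol demethylase Msmo1 (chromosome 8, 64718139 to 64733792, minus strand) measured 121.6, 240.6, 194.0 and 202.7 CPM on HF and 57.5, 71.35, 75.95 and 60.8 CPM on HFCF (log2 −1.51, SE 0.19, adjusted p 0.00237). Idi1, the isopentenyl diphosphate isomerase, had 41.4, 95.1, 40.1 and 65.7 CPM on HF and 14.2, 25.0, 23.0 and 21.3 CPM on HFCF (log2 −1.52, SE 0.28, adjusted p 0.00789). Squalene synthase (Fdft1) fell by 0.87 (SE 0.16, adjusted p 0.0084) and the sterol reductase Tm7sf2 by 0.96 (SE 0.18, adjusted p 0.00849). In these 4 genes every HFCF liver, replicate 1 included, was below every HF liver. The number that fell was 7 without HF replicate 2 or HFCF replicate 3, 6 without HF replicate 4 and 5 without HFCF replicate 4.

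Sterol export and LXR target genes rose in 3 of 17 tested, Scd1 included, and fell in 1. These shares were 17.6% and 5.88%, beside 8.44% and 6.01% of all genes. The cholesterol exporters Abca1, Abcg5 and Abcg8, named after their values were seen, changed by 0.17 (adjusted p 0.541), −0.01 (adjusted p 0.989) and −0.26 (adjusted p 0.45). Without HFCF replicate 1 the list had 5 higher and 4 lower; 0 fell without HFCF replicate 4, and 1 rose without HF replicate 1 or 4 or HFCF replicate 2, 3 or 4. Bile acid synthesis and transport genes fell in 5 of 21 (23.8%, beside 6.01% of all genes) and rose in 1 (4.76%, beside 8.44%). Of these genes 0 rose without HF replicate 2 or 4 or HFCF replicate 2, 3 or 4. Cyp39a1, an oxysterol hydroxylase of bile acid synthesis, was at 35 to 58.5 CPM on HF and 18.2 to 29.4 CPM on HFCF (log2 −0.94, SE 0.18, adjusted p 0.00868). Cyp7a1, the rate-limiting enzyme of that pathway, had 793.9, 270.2, 468.8 and 440.4 CPM on HF and 201.0, 216.2, 343.7 and 128.5 CPM on HFCF. It was named after its values were seen; the groups overlapped and its log2 change of −1.15 had an adjusted p of 0.0501. The bile acid genes that fell numbered 9 without HFCF replicate 1, 3 without HFCF replicate 3, 2 without HF replicate 2, and 1 without HF replicate 1, HF replicate 4, HFCF replicate 2 or HFCF replicate 4.

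**Figure D4:**
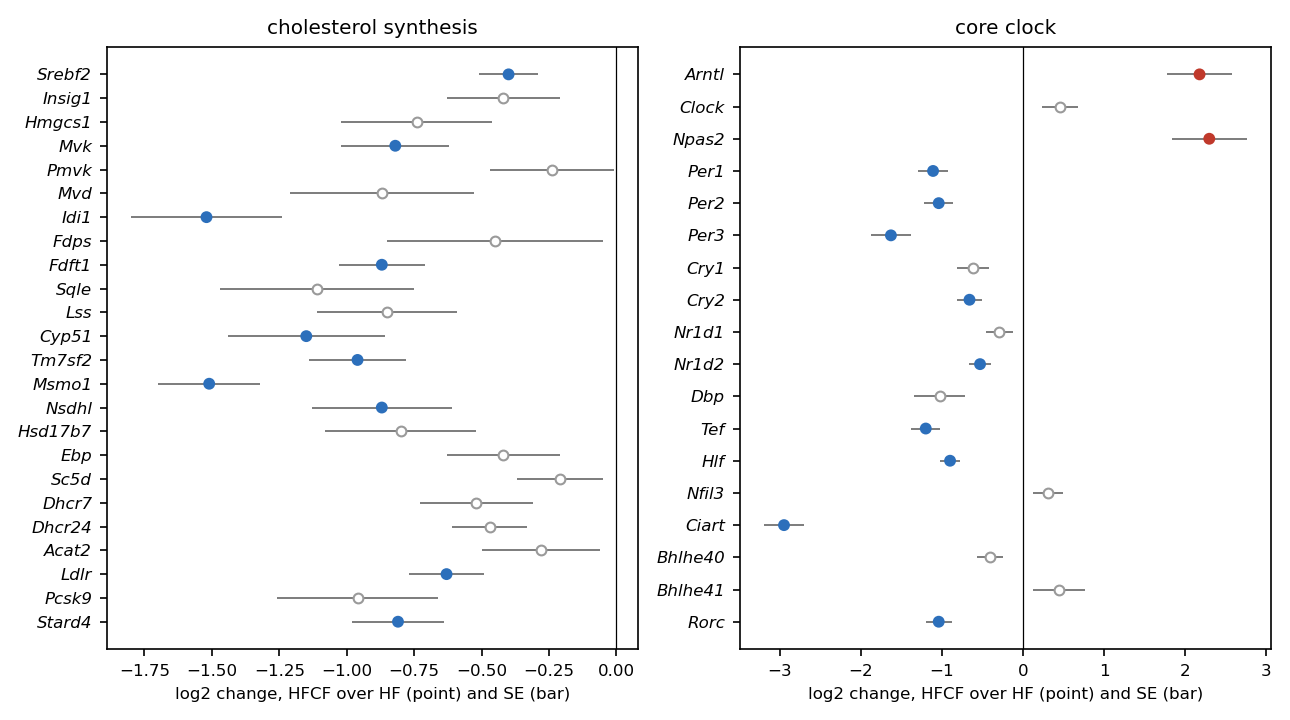
Log2 change, HFCF over HF (points) with its SE (bars), of the tested members of the cholesterol synthesis list (left; 1 is not shown) and of the core clock list (right); filled points passed the edgeR threshold. All points of the cholesterol synthesis panel lie below 0; in the clock panel Arntl and Npas2 lie to the right at 2.18 and 2.30, and Ciart to the left at −2.95.

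Core clock genes that were called were mostly lower on HFCF. In the circadian feedback loop, the activators ARNTL, CLOCK and NPAS2 bind E-box sequences and drive the genes of their own repressors. Of 18 tested, 9 fell and 2 rose, with 7 to 11 falling and 2 or 3 rising in the leave-one-out fits (median −0.64). The repressor gene Ciart (chromosome 3, 95878503 to 95882251, minus strand) measured 20.8, 17.1, 22.1 and 29.4 CPM on HF and 2.54, 4.03, 3.12 and 1.795 CPM on HFCF, so that the groups were far apart (log2 −2.95, SE 0.25, adjusted p 0.00108). Per3 had 185.3, 140.7, 175.2 and 195.3 CPM on HF and 50.7, 66.4, 78.0 and 30.15 CPM on HFCF (log2 −1.63, SE 0.25, adjusted p 0.00439). The output transcription factors Tef and Hlf fell by 1.2 (adjusted p 0.00426) and 0.90 (adjusted p 0.00271). The genes that rose, named after their values were seen, both encode activators: Arntl went from 0.698, 2.25, 0.9135 and 1.40 CPM on HF to 5.15, 4.18, 4.50 and 9.59 CPM on HFCF (log2 2.18, SE 0.40, adjusted p 0.00811), and Npas2 rose by 2.30 (SE 0.46, adjusted p 0.011). HFCF replicate 1 lay with its group in each of these. The hour of collection is not given in the sources used here, and diet and hour cannot be told apart if the groups were collected at different hours.

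The promoters of Ciart and of Per1, which fell by 1.11 (SE 0.19, adjusted p 0.00587), are shown because both hold the E-box letters CACGTG, in capitals (a palindrome, searched on both strands). They begin 116, 58 and 44 bases before the RefSeq start of Ciart and 166 bases before that of Per1. Per1 was named after its values were seen. The stretches are chr3:95882252-95882478 on the minus strand and chr11:69098699-69098947 on the plus strand, from RefSeq on GRCm38.p6, and end where an annotated first exon begins.
Ciart: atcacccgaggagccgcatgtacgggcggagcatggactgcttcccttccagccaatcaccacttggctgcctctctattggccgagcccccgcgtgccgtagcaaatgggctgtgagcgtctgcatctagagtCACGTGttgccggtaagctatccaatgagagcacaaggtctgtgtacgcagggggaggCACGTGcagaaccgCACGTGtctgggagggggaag
Per1: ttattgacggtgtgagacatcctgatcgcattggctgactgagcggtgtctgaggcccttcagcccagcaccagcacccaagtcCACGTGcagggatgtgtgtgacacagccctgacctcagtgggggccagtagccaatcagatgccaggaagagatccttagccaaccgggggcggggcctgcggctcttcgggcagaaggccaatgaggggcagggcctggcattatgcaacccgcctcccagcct
CACGTG stood before 5 of the 15 clock genes with a RefSeq promoter entry (33.3%) and before 6.86% of 27025 genes. The others of the 5 were Cry1, Tef and Bhlhe41. It also stood before 4 of 17 cholesterol synthesis genes (23.5%) and 0 of 18 matrix genes with an entry. Cry1 and Bhlhe41 were not called, so the letters occurred before clock genes that passed the threshold and before ones that did not.

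The calls of genes of hepatocyte metabolism depended on HFCF replicate 1, in a fit where the share of all genes called lower also went from 6.01% to 14% once that library was left out. Of 19 hepatocyte markers, 0 were called by edgeR with all 8 libraries (12 had an unadjusted p under 0.05; the DESeq2 Wald test called 9 lower), 16 (84.2%) fell without HFCF replicate 1, and 1 fell without HF replicate 3. What part the summed hepatocyte markers have in the results of the other lists was not tested. Albumin (Alb), the main plasma protein and a defining marker, was at 78015, 97165, 92607 and 84670 CPM on HF, at 85022 CPM in HFCF replicate 1, and at 55919, 60642 and 47949 CPM in HFCF replicates 2 to 4. Urea cycle and amino acid genes fell in 6 of 25 (24.0%) with all libraries and in 19 (76.0%) without HFCF replicate 1, and rose in 0 both times. Asl, argininosuccinate lyase of the urea cycle, had 653.2, 748.5, 772.6 and 767.2 CPM on HF and 564.3, 305.9, 324.9 and 257.6 CPM on HFCF (log2 −1.02, SE 0.22, adjusted p 0.0146; 0.0514 without HFCF replicate 2). The urea cycle list had 4 lower without HF replicate 3, 3 without HF replicate 2, 1 without HF replicate 1, HF replicate 4, HFCF replicate 3 or HFCF replicate 4, and 0 without HFCF replicate 2.

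Drug and steroid metabolism genes fell in 9 of 28 (32.1%, beside 6.01% of all genes) and rose in 4 (14.3%, beside 8.44%), with a median of −0.85; 21 of 29 (72.4%, beside 14% of all genes) fell without HFCF replicate 1. The xenobiotic receptor CAR (Nr1i3) measured 194.6, 162.8, 129.2 and 169.2 CPM on HF and 61.4, 62.7, 69.5 and 42.8 CPM on HFCF (log2 −1.47, SE 0.16, adjusted p 0.00159). By contrast Cyp3a11, the main drug-oxidizing P450 of its family in mouse liver, rose from 754.9 to 1174.0 CPM on HF to 1669.0 to 2191.7 CPM on HFCF (log2 1.0, SE 0.15, adjusted p 0.00439), and the glutathione transferase Gstm3 rose by 2.42 (SE 0.32, adjusted p 0.00259). The falls numbered 12 without HF replicate 3, 6 without HF replicate 2, 4 without HF replicate 1, HF replicate 4, HFCF replicate 3 or HFCF replicate 4, and 3 without HFCF replicate 2.

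Several female-biased liver genes fell on HFCF, and a male-biased one rose. Cux2, a transcription factor made in female liver (chromosome 5, 121856366 to 122050102, minus strand), had 186.6, 135.5, 62.9 and 201.5 CPM on HF and 26.6, 4.28, 13.7 and 5.64 CPM on HFCF (log2 −3.56, SE 0.56, adjusted p 0.00478). The female-biased steroid hydroxylase Cyp2a4 had 773.9, 1147.5, 826.9 and 1009.2 CPM on HF and 318.5, 321.2, 277.1 and 182.7 CPM on HFCF (log2 −1.77, SE 0.20, adjusted p 0.00159). Mup20, a urinary pheromone protein of male liver, rose from 16.6, 28.5, 40.2 and 18.7 CPM to 87.05, 110.7, 165.3 and 282.7 CPM (log2 2.63, SE 0.41, adjusted p 0.00439). Neither these genes nor Cyp2b9, which fell by 1.04 (SE 0.21, adjusted p 0.0107), overlapped between diets. For Cux2 this was a condition of its ranking among the largest falls. Mup20 and the Cyp2a and Cyp2b genes have near-identical copies, so their counts are uncertain. The list holds female-biased and male-biased genes together, and its falls were not divided by that bias. Of 24 tested, 9 fell (37.5%, beside 6.01% of all genes) and 1 rose (4.17%, beside 8.44%), with a median of −1.12. Without HF replicate 3, 2 rose. The falls numbered 15 without HFCF replicate 1, 13 without HF replicate 3 and 5 without HF replicate 2 or HFCF replicate 3. They numbered 4 without HF replicate 1 or 4, and 3 without HFCF replicate 2 or 4. In labelled-knockout males Mup20 was at 1529 ± 456.5 CPM on HF (SD, n = 6) and 2078 ± 393.6 CPM on HFCF, and Cux2 at 0.682 ± 0.312 and 0.761 ± 0.283 CPM, so the female HFCF livers stayed far from the male levels of both.

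Single genes with the largest falls outside the lists were Grid1 (a glutamate receptor-like subunit; −3.10, SE 0.38, adjusted p 0.00202), Enho (the secreted peptide adropin; −2.79, SE 0.31, adjusted p 0.00159), the sulfotransferase Sult5a1 (−2.54, SE 0.44, adjusted p 0.00658) and Gucy2c (the guanylate cyclase C receptor; −2.50, SE 0.52, adjusted p 0.0133). Enho measured 22.9, 20.85, 26.9 and 37.2 CPM on HF and 5.37, 5.17, 3.365 and 1.795 CPM on HFCF. A lack of overlap was a condition for naming genes by the size of their fall.

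In each of the stress and defence lists, most members were not called. Among ER and integrated stress genes 5 of 22 rose and 2 fell (22.7% and 9.09%, beside 8.44% and 6.01% of all genes). Without HFCF replicate 4 these shares were 4.55% each, beside 3.87% and 1.95% of all genes. Herpud1, an ER-associated degradation factor, fell from 420.6 to 483.8 CPM on HF to 249.7 to 302.3 CPM on HFCF (log2 −0.79, SE 0.11, adjusted p 0.00307), whereas the ER chaperone cofactor Creld2 rose by 0.75 (SE 0.16, adjusted p 0.0162; 0.0512 without HF replicate 4). The ER stress genes that rose numbered 6 without HFCF replicate 1, 4 without HF replicate 3 or HFCF replicate 3, 2 without HF replicate 2, 1 without HF replicate 1, HFCF replicate 2 or HFCF replicate 4, and 0 without HF replicate 4; the 2 falls became 1 in the 6 fits other than those without HF replicate 1 or HFCF replicate 1. Among NRF2 and oxidative stress genes 6 of 22 rose, with the sulfiredoxin Srxn1 at 39.7 to 47.8 CPM on HF and 60.8 to 92.5 CPM on HFCF (log2 0.83, SE 0.15, adjusted p 0.00708), and 1 fell (5 without HFCF replicate 1, 1 without HF replicate 2 or 3, and 0 in the other 5 fits). Interferon-stimulated genes rose in 4 of 21 (2 without HF replicate 4) and fell in 0 (1 without HFCF replicate 1), including Ifit2, an antiviral RNA-binding protein, which rose by 1.58 (SE 0.21, adjusted p 0.00247). Of 23 acute phase and complement genes 3 rose and 2 fell (13.0% and 8.7%, near the 8.44% and 6.01% of all genes); 8 rose without HF replicate 3, 1 without HF replicate 4 or HFCF replicate 2 or 3, and 0 without HF replicate 1, HF replicate 2 or HFCF replicate 4, while 8 fell without HFCF replicate 1, 1 without HF replicate 2 or 3 and 0 in the other 5 fits. The acute phase protein Saa2 had 24.2, 31.8, 103.4 and 13.3 CPM on HF and 156.4, 183.7, 206.5 and 231.9 CPM on HFCF (log2 2.16, adjusted p 0.0247), a call that was lost in the fits without HF replicate 1, HF replicate 2 or HFCF replicates 2 to 4 (adjusted p 0.0566 to 0.0683).

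Markers of neighbouring tissues ranged from absent to abundant. Adipoq, Plin1 and Retn (fat), Cela3b, Cpb1 and Prss2 (pancreas) and Cldn18, Gkn3 and Muc5b (gallbladder and gut) had 0 reads in all 8 livers. The summed adipose list, which holds Car3, stood at 1215.9 to 1736.7 CPM on HF. On HFCF it was 1546.6 CPM in replicate 1 and 499.7 to 661.8 CPM in replicates 2 to 4. Most of these HFCF sums was Car3, at 1495.4 CPM in replicate 1 and 463.7 to 623.8 CPM in replicates 2 to 4. The gallbladder and intestine list summed to 107.9 to 166.7 and 144.4 to 209.9 CPM, and the pancreas list to 11.8 to 17.5 and 6.31 to 12.1 CPM. Of 6 blood genes 0 were called by edgeR (0 at an unadjusted p under 0.05, and 0 by the DESeq2 Wald test); 1 rose without HF replicate 3. In the gallbladder and intestine list the mucin Muc1 rose by 2.51 (SE 0.44, adjusted p 0.00681) and villin (Vil1) by 1.68 (adjusted p 0.0199; 0.0529 to 0.066 without HF replicate 2 or 4 or HFCF replicates 2 to 4); both are also made by bile duct cells, and the part of such cells in these values was not tested. In the pancreas list 1 gene was tested, the elastase Cela1, which fell by 0.84 (adjusted p 0.0337; called in 2 of the 8 leave-one-out fits, those without HF replicate 3 or HFCF replicate 1). Of 4 adipose genes tested 0 were called by edgeR, with the DESeq2 Wald test calling 2 lower; 3 fell without HFCF replicate 1 and 1 rose without HF replicate 3.

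The same diets were compared in female controls (F-N-C against F-HF-C, 4 livers each), which share no library with the labelled knockouts. There 4526 of 14701 genes (30.8%) were called. The 2 sets of called genes had 1486 in common, 70.2% of the labelled-knockout set and 32.8% of the control set; all 1486 had the same sign. Across 14377 genes tested in both, the log2 changes correlated with a Pearson r of 0.808 as a description, since genes share their libraries and are no replicates. The list counts are set side by side here. Matrix genes rose in 27 of 30 in labelled knockouts and 24 of 30 in controls. Cholesterol synthesis genes fell in 11 and 12 of 25, and recruited myeloid genes rose in 9 of 26 and 20 of 27. The myeloid count in labelled knockouts was 19 of 27 without HF replicate 3, and 1 of 26 without HFCF replicate 4. Of all genes, 8.44% were called higher and 6.01% lower in labelled knockouts, and 16.9% and 13.8% in controls. The test of the diet by genotype interaction, which asks whether the diet difference differed between labelled knockouts and controls, called 0 of 15445 genes by edgeR, with 667 (4.32%) at an unadjusted p under 0.05 and 0 called by the DESeq2 Wald test.

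The smallest interaction p values belonged to Pard6b, Siglech, the small GTPase gene Arl4a, the cystine transporter subunit Slc3a1 and the growth factor binding protein Igfbp6, each with an adjusted p of 0.958. Siglech, a receptor of plasmacytoid dendritic cells, was at 0.373 ± 0.160 CPM (SD, n = 4) on HF and 1.55 ± 0.227 CPM on HFCF in labelled knockouts, and at 1.01 ± 0.447 and 0.650 ± 0.314 CPM in controls (interaction log2 2.62, SE 0.57). Pard6b, a cell polarity protein, went from 6.63 ± 0.646 to 11.2 ± 0.772 CPM in labelled knockouts and from 8.72 ± 0.756 to 8.56 ± 1.2 CPM in controls (interaction log2 0.80, SE 0.17). Slc3a1 went from 62.5 ± 13.9 to 27.2 ± 1.77 CPM in labelled knockouts and from 39.9 ± 7.92 to 32.6 ± 4.35 CPM in controls (interaction log2 −0.91, SE 0.22). Gpnmb had an interaction of 2.17 with an SE of 1.19 and an adjusted p of 0.958. The control HF livers were spread widely in it, at 5.77 ± 9.23 CPM.

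In labelled-knockout males (M-N-KO against M-HF-KO, 6 livers each) 5962 of 14314 genes (41.7%) were called. Both lists held 1563 genes, 73.8% of the female and 26.2% of the male list; 1556 had the same sign and 7 the opposite. Cholesterol synthesis genes fell in 25 of 25 in males, where 20.0% of all genes were lower, and in 11 of 25 in females, where 6.01% were; 0 of the 25 passed the edgeR test of the diet by sex interaction (0 at an unadjusted p under 0.05, and 0 by the DESeq2 Wald test). Matrix genes rose in 29 of 30 in males, where 21.6% of all genes were higher. The diet by sex interaction called 2 of 15400 genes (0.013%), 1 in each direction (0.00649% each), with 1829 (11.9%) at an unadjusted p under 0.05; the DESeq2 Wald test called 161. Gm4956, a predicted gene, fell in males from 10.3 ± 1.75 to 2.28 ± 0.501 CPM (SD, n = 6) and was at 0.849 ± 0.395 and 1.17 ± 0.445 CPM (n = 4) in females, an interaction of 2.6 (SE 0.38, adjusted p 0.0158). Pitpnm2, a phosphatidylinositol transfer protein, measured 113.9, 113.6, 100.1 and 117.2 CPM in the female HF livers and 51.3, 74.7, 74.8 and 71.4 CPM in the female HFCF livers, while males had 66.7 ± 4.79 and 71.9 ± 4.02 CPM (interaction −0.84, SE 0.13, adjusted p 0.0229). Both calls were lost without female HF replicate 1 or female HFCF replicate 4. That of Pitpnm2 was also lost without male HF replicate 4 or male HFCF replicate 1 or 5. The test called 43 genes without male HF replicate 6, 30 without female HFCF replicate 3, and 0 to 10 with any other library left out. The sex-biased genes Cux2 (−3.75, adjusted p 0.0683) and Mup20 (2.17, adjusted p 0.0655) and the ER gene Creld2 (1.62, adjusted p 0.0655) missed the threshold.

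**Figure D5:**
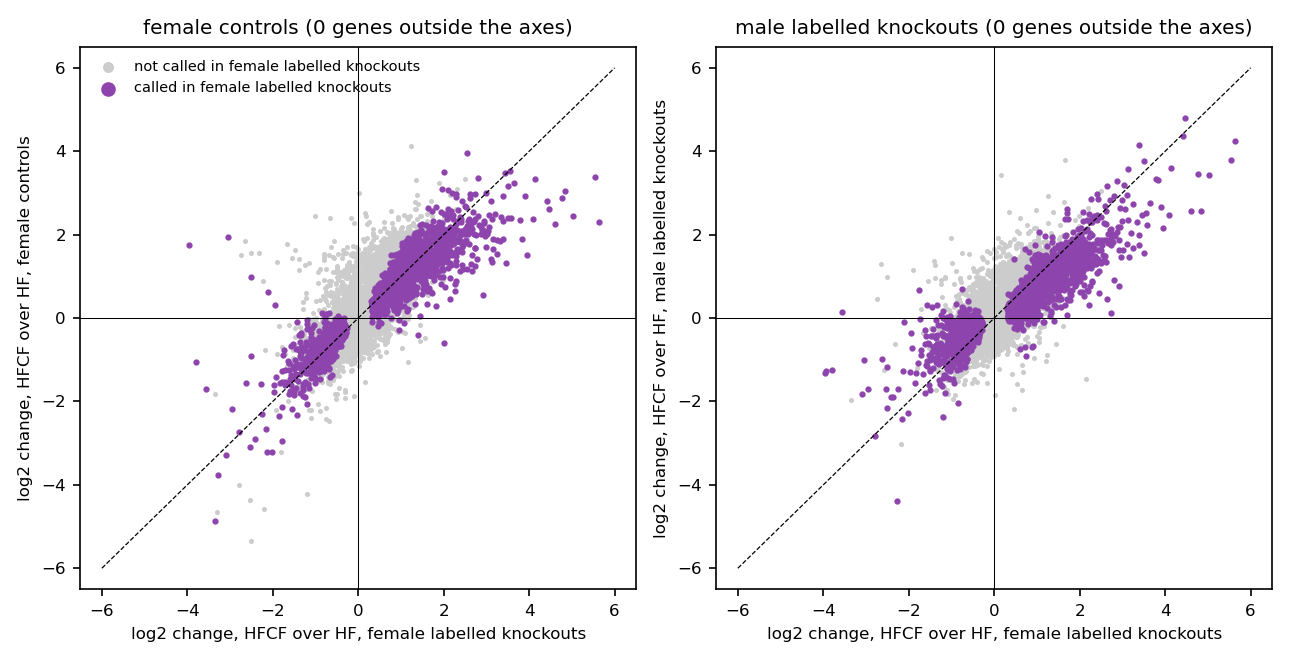
Log2 change, HFCF over HF, of each gene in female labelled knockouts (horizontal axis) against female controls (left) and male labelled knockouts (right); purple points were called in female labelled knockouts, grey were not, and the dashed line is equality. Most purple points lie in the quadrants of equal sign. In both female comparisons 1486 genes were called, all with equal sign. In both labelled-knockout comparisons 1563 were called, 1556 with equal and 7 with opposite sign.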

How the data were processed

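RNA of 48 whole livers was sequenced from libraries that do not keep the strand, per the labels' protocols. STAR 2.6.1, HTSeq 0.6.1 and DESeq2 (listed as 2) are named in the submitters' processing notes, with builds GRCm38 and mm10. The authors deposited read counts per gene, which were used as deposited; no column lacked a sample, and 186288 repeated values were identical between tables. The authors also deposited FPKM values, used here only as a length-scaled level, and a size-factor-normalized signal of read counts, which was not used for tests. The authors' deposited table of this comparison gives log2 fold changes and p-values; 3008 genes have an adjusted p under 0.05 in it, and 2112 of these are among the 2118 called here. Gene coordinates are those of the deposited tables, 97.4% of which equal GENCODE M21.

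Groups came from sample titles. Counts were filtered (filterByExpr), scaled by TMM and tested with edgeR 4.0.16 in R 4.3.3 (quasi-likelihood F test, Benjamini-Hochberg over all genes tested, threshold 0.05); SE is the log2 change over the square root of F. DESeq2 1.42.0 was an alternative, as were other filters, fits and left-out libraries. Printed CPM values used TMM factors over all 48 libraries. The script was tested on simulated data. Depth was 15338182 to 21230433 reads per library. The labels do not tell more than that each library is a separate mouse. The p-values therefore judge a difference against the spread between these mice, and a shared litter or cage cannot be told apart from diet.

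The members and the 29 gene lists (518 genes tested) were chosen with earlier results of these data known. Named genes were up to 14 rises and 14 falls ranked by log2 change among called genes with at least 1 CPM on average and no overlap between groups, the 4 smallest p of each list, the 5 largest rises and falls in CPM, up to 5 genes per direction of each interaction (or, with none called, the 5 smallest p), Pparg and defining markers. Same-numbered libraries did not deviate together (correlations −0.26 to 0.0101), so the main fit used no pairing. So few correlations cannot exclude one. Without strand, reads of overlapping genes cannot be told apart; among the named genes this touches Fdft1 (with Ctsb), Tm7sf2 (Vps51), Cygb (Prcd), Cdc20 (Elovl1), Nr1i3 (Tomm40l), Per3 (Camta1), Enho (Dnaic1), Vil1 (Usp37), Slc3a1 (Prepl) and Abcg5 (Abcg8). Promoter sequences were the 250 bases before RefSeq gene starts. The values of 1 cholesterol synthesis gene are not reported here, though it is included in the list's counts.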

Additional observations from a re-analysis of the deposited data

Results flagged for a closer look

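In 18 of 282 groups of 4 libraries tested, 1 library's CPM lay far from the other 3; chance flags about 1 in 20 groups. HFCF replicate 1 was that library 8 times. It was the highest of its group for the antisense gene Hnf4aos (7.11 CPM), Cd163 (11.0 CPM), the interferon-induced tetherin Bst2 (314.2 CPM) and the carbonic anhydrase Car3 (1495.4 CPM). It was the lowest for Loxl2 (7.18 CPM), Ccr2 (7.4 CPM), Ctsk (1.74 CPM) and Pitpnm2 (51.3 CPM). HFCF replicate 4 was the highest for Eln (29.0 CPM).

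Among the HF livers, replicate 2 was the highest for Cidec (6.22 CPM), Creld2 (18.0 CPM), Srxn1 (47.8 CPM) and the apolipoprotein Apoa4 (475.4 CPM), and the lowest for Folr2 (2.05 CPM). Replicate 3 was the highest for Gsta1 (1.39 CPM) and for the immunoglobulin light chain Igkc (98.7 CPM). Replicate 4 was the highest for the methionine adenosyltransferase Mat1a (4608.0 CPM) and the lowest for Sprr1a, with 0 reads.

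The edgeR interaction test called the diet response different between the sexes for Gm4956 (log2 2.6, more positive in females) and Pitpnm2 (log2 −0.84, more negative in females). Both calls were lost in some fits with 1 library left out.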

How the results depend on the processing

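The 2118 genes called became 913 with a log2 change of at least 1 in size as a further condition, and 866 to 4402 with 1 library left out. With the replicate block they became 1180, of which 1141 were shared. No library correlated best with its own number, though so few correlations cannot exclude a pairing. The cause of the lower number was not tested. Counts from the other fits were 2096 (DESeq2 size factors), 2987 (DESeq2 Wald test), 2044 (no filter), 1898 (at least 10 reads in every library) and 2802 (all female groups in one fit). The gene lists held 184 called genes, and 96 to 286 with 1 library left out.

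The 2 genes of the diet by sex interaction became 6 with DESeq2 size factors, 161 with the DESeq2 Wald test, 18 without a filter, 1 with at least 10 reads in every library, 38 with all groups in one fit, 12 with the replicate block, 1 with a log2 change of at least 1 in size, and 0 to 43 with 1 library left out. The diet by genotype interaction called 0 genes in every setting run. For Pparg the log2 difference of 0.68 passed the threshold with DESeq2 size factors (0.68, adjusted p 0.0496) and with all female groups in one fit (0.68, adjusted p 0.0411), and was 0.53 to 0.88 with 1 library left out. Of the named genes tested both with all 8 libraries and under an alternative, 0 changed direction; some were not tested in every setting, mainly with at least 10 reads required. Single left-out libraries ended 226 calls and added 12 over 8 fits. The causes were not tested. With 4 livers a group, low-count genes such as Sprr1a (11 reads over the HF livers) and Mmp13 are measured least precisely.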
